A study of Mus musculus with 19 samples.

Results

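The 9 genes described here encode immune checkpoint molecules, the transcription factor of regulatory T cells and the first enzymes of tryptophan breakdown: Cd274, Pdcd1lg2, Pdcd1, Ctla4, Lag3, Havcr2, Foxp3, Ido1 and Tdo2. They were found by gene symbol in the array's annotation, which gave 11 spots, 2 each for Havcr2 and Tdo2 and 1 for every other gene, out of 33653 spots with a single gene and 19087 genes. Tdo2 was chosen by its measured values, which were low in responders, so those values are given as a description without a test. Pdcd1lg2 was measured in 12 of 19 tumours and did not pass the requirement of 70% of arrays, so 8 of the 9 genes entered the fit across 18553 genes.

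RNA from 19 mammary adenocarcinomas of FVB mice was hybridised to 2-colour oligonucleotide arrays, 1 tumour to an array. All mice carried the Simian virus 40 T antigen driven by the rat C3(1) promoter, a transgene that produces tumours of mammary epithelium, so no group lacks the oncogene and no normal mammary gland is among the groups. The 7 untreated tumours had no chemotherapy, and 12 tumours came from mice given carboplatin and taxol, of which 9 were labelled non-responders, 4 at 2 weeks and 5 at 3 weeks, and 3 responders, 1 at 2 weeks and 2 at 3 weeks. The sources used here state neither how response was judged, nor the age of the mice, nor whether any RNA was pooled, and 2 of the tumours at 3 weeks, non-responder 1 and responder 3, carry the same mouse number.

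Every array carried Cy5-labelled RNA of 1 tumour and a Cy3-labelled reference RNA of whole mouse, so each value is a log2 ratio to a common reference, likely tumour over reference. The log base and direction were inferred from the values: the hepatocyte genes Fabp1, Apoa1 and Alb averaged -6.85, -4.51 and -2.67, and were negative in 19 of 19 tumours. If the ratio were turned, every sign below would turn with it. The labelled tissue was borne out in part by its markers: Krt18, Epcam, Krt7 and Krt8 averaged 2.53, 2.31, 2.17 and 1.54 and were positive in all 19 tumours. Of 12 epithelial markers 9 had a positive mean, and 3 did not: Cdh1, the E-cadherin of epithelial junctions, averaged -0.57 and was positive in 5 tumours, Krt19 averaged -0.12 and was positive in 10, and Krt5, a basal keratin, averaged -2.36 and was negative in all 19. An exact 0, found at 1.63% to 9.1% of the spots of an array, was taken as not measured. Arrays fall into 7 whose title has a hyphen after the transgene and 12 whose title does not, and all 3 responders are among the 7, with 2 untreated tumours and 2 non-responders. The labels do not say what the title spelling stands for, and between responders and the other tumours it can be examined only within those 7 arrays. Both non-responders with the hyphen were taken at 3 weeks, and all 4 non-responders at 2 weeks lack it. Spelling and week are thus partly confounded in every comparison of 3 with 2 weeks.

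Immune checkpoints are receptor and ligand pairs that restrain T cells. PD-1, the product of Pdcd1, is bound by PD-L1 (Cd274) and PD-L2 (Pdcd1lg2), CTLA-4 competes with the costimulatory receptor CD28 for its ligands CD80 and CD86, and LAG-3 and TIM-3 (Havcr2) restrain activated T cells, TIM-3 being found also on myeloid cells. IDO1 and TDO2 each open the tryptophan ring in the first step of the kynurenine pathway, IDO1 in immune and tumour cells under interferon gamma and TDO2 mainly in the liver, and both depletion of tryptophan and its breakdown products can restrain T cells.

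None of these genes differed between groups after adjustment over all genes, in any comparison. In treated against untreated tumours, 0 of the 7 genes tested passed an adjusted p of 0.05 in limma's moderated test with Benjamini-Hochberg adjustment, against 3.65% of all 18553 genes, and 0 of 7 had an unadjusted p under 0.05. In non-responders against untreated tumours 0 of 8 passed, against 1.53% of all genes. In responders against untreated tumours 0 of 7 passed, against 0.0755% of all genes. In responders against non-responders 0 of 7 passed and 0% of all genes did. Between 3 and 2 weeks in non-responders 0 of 8 passed, against 0.00539% of all genes. No tested gene had an unadjusted p under 0.05 in any of these comparisons either, while 3714, 3218, 2995, 1174 and 761 of all genes did, in the same order, where 928 would be reached by chance. The lowest unadjusted p of a member in these fits, with a gene's spots averaged, was 0.0583, for Ctla4 between 3 and 2 weeks. What the genes showed was their level against the reference and how far single tumours stood apart.

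**Figure D1:**
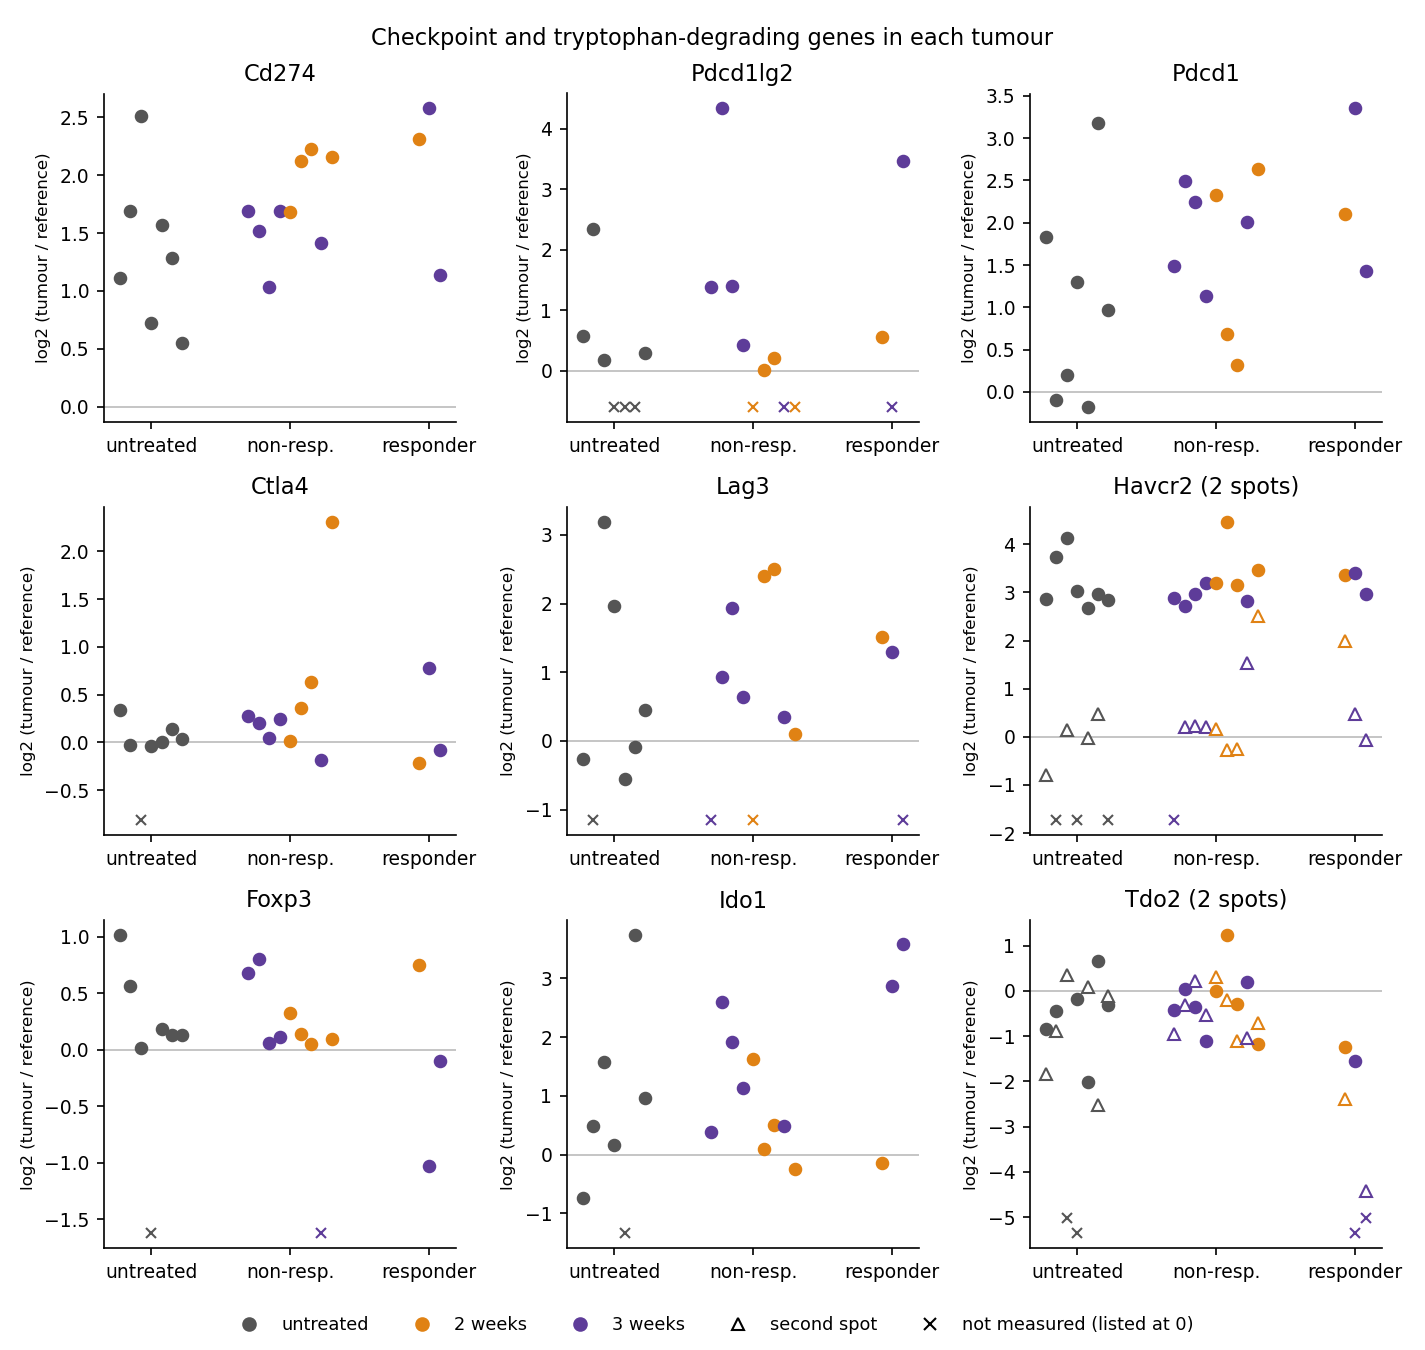
Log2 ratio of tumour over reference (vertical axis of each panel) for each of the 9 genes in untreated, non-responder and responder tumours; each symbol is 1 spot in 1 tumour, coloured by week, with the second spot of Havcr2 (spot 9070) and of Tdo2 (spot 16389) as open triangles and spots not measured as crosses below the data. Cd274 lies above 0 in all 19 tumours, and Ctla4 lies near 0 with 1 non-responder at 2.31.

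Cd274, which encodes PD-L1, the ligand through which tumour and myeloid cells engage PD-1, was above the reference in 19 of 19 tumours. The 7 untreated tumours ranged from 0.55 to 2.51 with a median of 1.28. The 9 non-responders ranged from 1.04 to 2.23 with a median of 1.69, and the 3 responders were at 2.31, 2.57 and 1.14. Treated tumours thus lay within the untreated range, apart from 1 responder just above it. The mean was 1.35 ± 0.66 (SD, n = 7) in untreated tumours, 1.73 ± 0.39 (n = 9) in non-responders and 2.01 ± 0.76 (n = 3) in responders. The difference of treated from untreated tumours was 0.45 ± 0.26 (SE; 95% interval -0.08 to 0.98; limma adjusted p = 0.344), and 10 of 12 treated tumours exceeded the untreated mean. Within the 7 arrays with the hyphen this difference was 0.45, and within the other 12 it was 0.43. It was 0.64 without untreated replicate 3, the highest untreated tumour, with an adjusted p of 0.126. Responders differed from non-responders by 0.28 ± 0.36 (interval -0.47 to 1.04; adjusted p = 0.963); without responder replicate 2 the difference was -0.0006 and without responder replicate 3 it was 0.72.

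By time, non-responders at 2 weeks were at 1.68, 2.12, 2.23 and 2.16 for Cd274. At 3 weeks they were at 1.69, 1.52, 1.04, 1.69 and 1.42, all below the mean of the tumours at 2 weeks, and 3 of 5 below each of those tumours. The difference, 3 minus 2 weeks, was -0.58 ± 0.35 (interval -1.32 to 0.17), with a limma adjusted p of 1.00 to 2 decimals (0.9996).

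Pdcd1lg2 encodes PD-L2, the second ligand of PD-1, and its gene is the protein-coding neighbour of Cd274 on chromosome 19, with 0 protein-coding genes between them in the GRCm38.p6 annotation. The untreated tumours measured were at 0.57, 2.35, 0.18 and 0.29. Non-responders at 2 weeks were at 0.01 and 0.21 and those at 3 weeks at 1.39, 4.34, 1.40 and 0.42, and the responders measured were at 0.57 and 3.47. All 4 non-responders measured at 3 weeks were above both measured at 2 weeks, but 3 of the 9 non-responders had no value. How often other genes separate with so few values was not counted, so this is no result by time. With no filter on measured spots the difference between 3 and 2 weeks was 1.78 ± 0.95 (limma adjusted p = 1.00, written 0.9997 in full), and treated differed from untreated tumours by 0.63 ± 0.78 (adjusted p = 0.72). The values also moved with the title spelling: 6 of the 7 hyphen-titled arrays had a value, from 0.57 to 4.34, and 6 of the other 12 had one, from 0.01 to 1.40. Both hyphen-titled non-responders, at 1.39 and 4.34, were taken at 3 weeks, and no non-responder at 2 weeks had such a title. The part of the spelling in the difference by week was not tested, and spelling and week cannot be fully told apart.

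The start regions of both ligand genes are printed because PD-L1 is a textbook target of interferon regulatory factors. Both are 300 bases of the plus strand, 250 before and 50 after the annotated start, from RefSeq on GRCm38.p6, in which 7 of the 9 genes had an entry. The capitals in the Cd274 sequence mark a match on the minus strand to GAAANNGAA, part of the letters bound by interferon regulatory factors, 76 bases before the start.
Cd274, chr19:29367188-29367487: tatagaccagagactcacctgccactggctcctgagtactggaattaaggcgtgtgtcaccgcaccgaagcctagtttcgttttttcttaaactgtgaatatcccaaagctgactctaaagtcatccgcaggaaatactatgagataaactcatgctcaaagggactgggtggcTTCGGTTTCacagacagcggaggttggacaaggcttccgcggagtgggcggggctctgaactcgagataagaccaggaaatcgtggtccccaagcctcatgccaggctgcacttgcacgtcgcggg
Pdcd1lg2, chr19:29410669-29410968: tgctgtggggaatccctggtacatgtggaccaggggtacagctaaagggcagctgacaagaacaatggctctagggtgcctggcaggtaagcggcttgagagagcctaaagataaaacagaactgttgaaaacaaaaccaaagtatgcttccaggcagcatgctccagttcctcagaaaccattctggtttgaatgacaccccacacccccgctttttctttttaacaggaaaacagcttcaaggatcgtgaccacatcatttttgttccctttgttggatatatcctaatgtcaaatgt
GAAANNGAA, searched on both strands, is held by 8.56% of 32851 promoters of this length. The letters TTCNNNGAA, the gamma-activated sequence, are held by 8.30%. The gamma-activated letters are in neither window, and the Pdcd1lg2 window holds neither set of letters; this says nothing of the factors. A match of letters is a description of the sequence and not evidence of binding.

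Pdcd1, which encodes the receptor PD-1 of activated T cells, was positive in 17 of 19 tumours. The lowest, median and highest untreated values were -0.18, 0.97 and 3.18, and those of non-responders 0.32, 2.01 and 2.64. The responders were at 2.11, 3.35 and 1.43, all above the untreated mean, and 1 of them above every untreated tumour. Group means were 1.03 ± 1.21 (n = 7), 1.70 ± 0.84 (n = 9) and 2.30 ± 0.97 (n = 3) in untreated, non-responder and responder tumours, an order in which no neighbours differed beyond their spread. Treated tumours differed from untreated tumours by 0.82 ± 0.44 (interval -0.11 to 1.75; limma adjusted p = 0.317), and 10 of 12 exceeded the untreated mean. Responders differed from untreated tumours by 1.27 ± 0.65 (interval -0.09 to 2.62; adjusted p = 0.345), the largest tested difference of a member in that comparison. Without untreated replicate 6, the untreated tumour at 3.18, the adjusted p was 0.192. The difference was 0.74 without responder replicate 2 and 1.70 without responder replicate 3. The treated difference was 1.30 in arrays with the hyphen and 0.53 in those without it.

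Ctla4, whose product takes the ligands of CD28 and is carried by activated and regulatory T cells, was within 0.4 of the reference in 15 of the 18 tumours measured. The 6 untreated tumours lay between -0.04 and 0.34. The 5 non-responders at 3 weeks lay between -0.18 and 0.27, and the 3 responders were at -0.22, 0.78 and -0.08. Non-responders at 2 weeks were at 0.01, 0.36, 0.63 and 2.31, so that a single tumour, non-responder 9, stood far above all others. Treated differed from untreated tumours by 0.29 ± 0.28 (interval -0.29 to 0.87; limma adjusted p = 0.613), and by 0.11 without non-responder replicate 9. The 3-week non-responders were all below the mean of the 2-week ones, with a difference of -0.71 ± 0.35 (interval -1.45 to 0.03). Without non-responder replicate 9 that difference was -0.22, the smallest of all those with 1 tumour left out. In non-responder 9 the mean of the T cell markers was -0.44, rank 10 of 19, while its macrophage and interferon gamma means, 1.58 and 1.97, were each second highest.

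Lag3, an inhibitory receptor of activated T cells and NK cells, was measured in 15 tumours. Untreated tumours ran from -0.55 to 3.19 with a median of 0.19 (n = 6), and non-responders from 0.10 to 2.50 with a median of 0.94 (n = 7). The 2 responders measured were at 1.52 and 1.30, inside both ranges. Treated differed from untreated tumours by 0.51 ± 0.55 (interval -0.65 to 1.67; limma adjusted p = 0.659), and no group was separated from another. The difference was 0.24 without untreated replicate 5 and 0.99 without untreated replicate 3.

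Havcr2, which encodes TIM-3, was read by 2 spots that disagreed. Spot 8670 was high in 19 of 19 tumours, from 2.68 to 4.47, and alike in the groups: 3.18 ± 0.54 in untreated tumours (n = 7), 3.21 ± 0.52 in non-responders (n = 9) and 3.25 ± 0.25 in responders (n = 3). Spot 9070 had a value in 15 tumours, from -0.78 to 2.50, and was within 0.4 of the reference in 9 of them. Over those 15 tumours the spots differed by 2.79 ± 1.01 on average and were not correlated (Pearson's r = 0.03, Spearman's rho = 0.14, given as a description). In the 4 tumours without spot 9070 the mean over spots is spot 8670 alone and is therefore higher. The difference of treated from untreated tumours was -0.25 ± 0.33 from the mean of both spots (limma adjusted p = 0.73), 0.04 from spot 8670 alone and 0.66 from spot 9070 alone, so no direction can be given for this gene. Between 3 and 2 weeks in non-responders, spot 8670 alone was lower by a difference of -0.65 (limma unadjusted p = 0.0535, adjusted p = 0.9996). Spot 9070 alone differed by 0.01 (limma adjusted p = 0.9996). Values of spot 8670 ran from 2.72 to 3.20 at 3 weeks and from 3.15 to 4.47 at 2 weeks. The highest of these, non-responder 6, was far from the other non-responders.

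**Figure D2:**
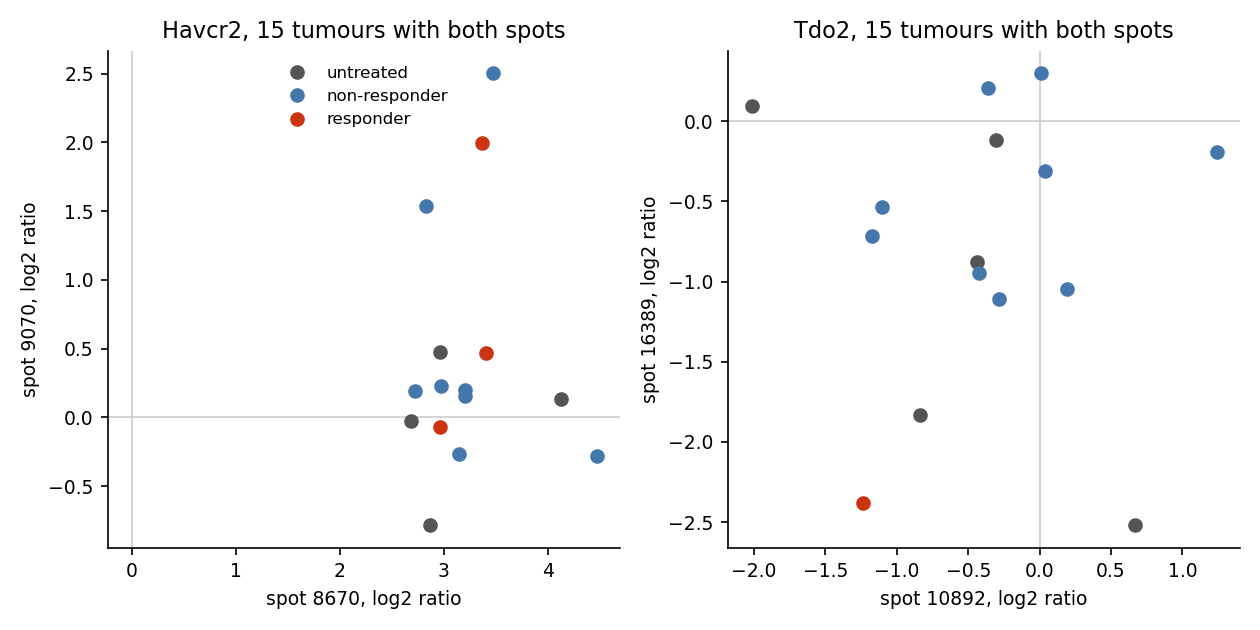
Log2 ratios from the 2 spots of Havcr2 (left) and of Tdo2 (right), 1 point for each of the 15 tumours in which both were measured, coloured by group, with grey lines at 0. Neither pair of spots follows a line: Pearson's r is 0.03 for Havcr2 and -0.02 for Tdo2.

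Foxp3, the transcription factor that defines regulatory T cells, was close to the reference in most tumours. Untreated tumours ran from 0.02 to 1.02 with a median of 0.16 (n = 6), and non-responders from 0.06 to 0.80 with a median of 0.13 (n = 8). The responders were at 0.75, -1.02 and -0.10, so 2 of the 3 were below every other tumour. Responders differed from non-responders by -0.41 ± 0.31 (interval -1.06 to 0.24; limma adjusted p = 0.911), and the difference was 0.04 without responder replicate 2, the tumour at -1.02. The spread followed the title spelling: the 10 arrays without the hyphen lay between 0.02 and 0.33 (SD 0.085), and the 7 with it between -1.02 and 1.02 (SD 0.713). Within the 7, responders differed from non-responders by -0.87 (adjusted p = 1.00, of 3 against 2 tumours).

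Ido1, the interferon-induced enzyme, varied widely between tumours of 1 group. Untreated tumours ran from -0.74 to 3.74 with a median of 0.73 (n = 6), and non-responders from -0.24 to 2.59 with a median of 0.50 (n = 9). Both responders at 3 weeks were high, at 2.88 and 3.59, above each non-responder, whereas the responder at 2 weeks was at -0.14. Responders differed from non-responders by 1.17 ± 0.81 (interval -0.54 to 2.88; limma adjusted p = 0.896), a difference smaller than the responders' own SD of 1.98. It was 0.43 without responder replicate 3 and 2.29 without responder replicate 1. Taking only tumours at 3 weeks it was 1.93 (adjusted p = 0.989), and the highest untreated tumour, at 3.74, was above both responders. In non-responders the 3-week values were 0.39, 2.59, 1.91, 1.14 and 0.48 and the 2-week values 1.62, 0.10, 0.50 and -0.24, which overlap (0.80 ± 0.71, interval -0.70 to 2.31). The difference of treated from untreated tumours was 0.21 ± 0.63 (adjusted p = 0.894) over all arrays, 1.99 with the hyphen and -0.82 without it. It thus turned its sign with the title spelling.

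Tdo2, the tryptophan-degrading enzyme of liver, was at or below the reference in 16 of 19 tumours by the mean of its 2 spots. Responders were at -1.81, -1.54 and -4.41, and the 16 other tumours between -1.34 and 0.52. The gene was chosen for this pattern, so the separation is no finding. The member just outside was untreated replicate 1, at -1.34, against the responder at -1.54. Only the responder at 2 weeks was measured by both spots, spot 10892 reading -1.24 and spot 16389 -2.38. The others were each measured by one, at -1.54 by spot 10892 and at -4.41 by spot 16389. Taken singly, neither spot separated the groups, since the lowest untreated tumours were at -2.02 by spot 10892 and -2.52 by spot 16389. The responders' difference from non-responders was -2.24 from the mean of both, -1.18 from spot 10892 and -2.91 from spot 16389. The spots were not correlated over 15 tumours (Pearson's r = -0.02, Spearman's rho = 0.02). All responders were also on hyphen-titled arrays, where Tdo2 ran from -4.41 to -0.14 against -0.96 to 0.52 on the others, and within the hyphen-titled arrays the responders' difference from the 2 non-responders was -2.18. Between groups without responders, non-responders differed from untreated tumours by 0.21 ± 0.36 (interval -0.53 to 0.96, limma adjusted p = 0.815). Non-responders at 3 weeks differed from those at 2 weeks by -0.19 ± 0.48 (interval -1.19 to 0.81). Both fits take their spread from all 19 tumours, so the chosen responder values enter these SE, intervals and p. Among the 12 arrays without the hyphen, which hold no responder, the 2 differences were 0.06 (limma adjusted p = 0.944) and -0.20.

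**Figure D3:**
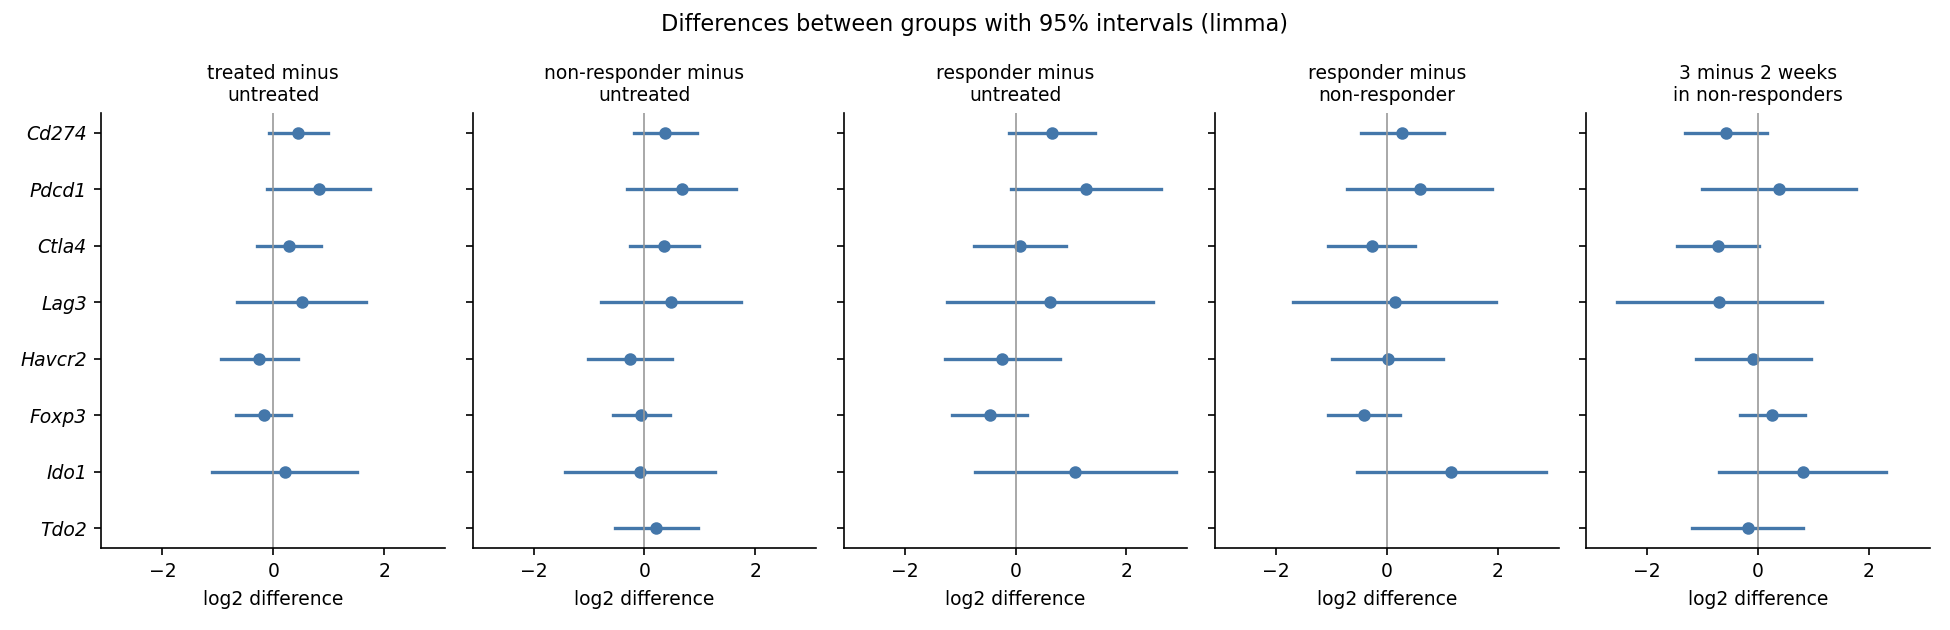
Differences between groups on the log2 scale (horizontal axis) for each gene tested, with limma's 95% intervals as lines, in 5 comparisons. Tdo2 is shown only where responders are not compared, though they inform its spread, and Pdcd1lg2, not tested, is left out. Every interval crosses 0, the widest being those of Lag3 and Ido1.

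Side by side, 5 of the 7 genes tested had a positive difference of treated from untreated tumours, with a median of 0.29 beside 0.03 over all genes. Havcr2, negative here by the mean of its 2 spots, was positive by each spot alone. The comparisons of responders and of non-responders share the untreated tumours and so are not separate evidence. Their medians over the tested genes were 0.62 and 0.29, beside 0.01 and 0.03 over all genes. Between responders and non-responders the median was 0.14, beside -0.01 over all genes, and between 3 and 2 weeks it was -0.14, beside -0.06. The intervals are wide: that of Ido1 in treated against untreated tumours ran from -1.11 to 1.52, and that of Lag3 in responders against non-responders from -1.69 to 1.97.

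The tumours' immune cell markers are given for context. In bulk tissue, fewer cells of a type and less RNA per cell cannot be told apart. Of 16 T cell genes, 5 had a mean above the whole-mouse reference and 11 a mean below it. Cd3d, Cd8a and Cd8b1 averaged -1.17, -1.08 and -1.92 and were positive in 2, 2 and 1 of 19 tumours. Ubash3a, Cd6, Cd2, Cd4 and Cd3e averaged 0.62, 0.44, 0.38, 0.22 and 0.15, while Cd3g, Cd247, Zap70 and Themis lay between -0.15 and -0.06. The mean of 16 T cell markers ran from -0.93 to -0.23 in untreated tumours, from -0.89 to 0.27 in non-responders and from -0.60 to 0.70 in responders. The highest was responder 2, which also had the highest Cd274 and Pdcd1. That tumour was highest as well in the macrophage, interferon gamma, NK cell, fibroblast and regulatory T cell means, so its place is not particular to T cells. Against 3.65% of all genes, 0 of the 16 passed in treated against untreated tumours, with a median of 0.27; those with the smallest p, Lat and Cd3g, differed by 0.91 and 0.72 (limma adjusted p = 0.233 and 0.251).

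Interferon gamma, made by T and NK cells, is the main inducer of PD-L1 and IDO1. Of 21 genes of its pathway 19 had a mean above the reference, and 13 were above it in every tumour, among them Irf1, Gbp3 and Cxcl10, which averaged 2.20, 3.01 and 4.12. Others stood nearer to it: Irf8, Nlrc5 and Socs1 averaged 0.66, 0.60 and 0.47 and were positive in 18, 16 and 16 tumours, and the kinase genes Jak1 and Jak2 averaged -0.13 and -0.45. In treated against untreated tumours 0 of the 21 passed by limma, against 3.65% of all genes. The difference was positive for 20 of 21, with a median of 0.43, where 52.7% of all genes were positive. Lists of other cell types leaned the same way, with 11 of 12 fibroblast, 10 of 11 NK cell and 8 of 8 skeletal muscle markers positive. Tap1, a peptide transporter of antigen presentation, differed by 0.99 ± 0.28 (adjusted p = 0.0543) and Cxcl10, a chemokine that draws T cells, by 1.31 ± 0.38 (adjusted p = 0.0556). Under 25 of 30 alternative settings each stayed above the threshold and under 5 it passed, the adjusted p running from 0.0261 to 0.515 for Tap1 and from 0.0197 to 0.708 for Cxcl10, with both highest values within the 7 hyphen-titled arrays.

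Other checkpoint and costimulatory genes held 3 that rose with treatment. Cd200r1, an inhibitory receptor of myeloid cells, was the 1 of 23 other inhibitory receptors and ligands that passed, at 1.41 ± 0.37 (limma adjusted p = 0.0407; 12 of 12 treated tumours above the untreated mean). Cd40, the receptor through which T cells license antigen-presenting cells, rose by 0.68 ± 0.17 (adjusted p = 0.0300; 12 of 12), with all 10 of its spots positive, from 0.18 to 1.62. Cd86, a ligand of both CD28 and CTLA-4, rose by 0.89 ± 0.22 (adjusted p = 0.0335; 11 of 12), and these were the 2 of 20 costimulatory genes that passed. The medians of the lists were 0.47 and 0.21. With 3.65% of all genes called, 1 of 23 and 2 of 20 are no result about either list. Among macrophage and monocyte markers, 4 of 14, C1qa, C1qb, Ly6c2 and Lyz2, also passed and were higher, beside 3.65% of all genes. The mean of that list ran from 0.04 to 0.91 in untreated tumours and from 0.58 to 1.61 in treated tumours. The part of these markers in the rise of Cd200r1, Cd40 and Cd86 was not tested.

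Of 25 other genes of tryptophan uptake, breakdown and sensing, 1 passed. Got2, a mitochondrial aminotransferase that can also act on kynurenine, rose by 0.52 ± 0.13 (limma adjusted p = 0.0321; 12 of 12). Its main role is in aspartate metabolism, and the median of the list was 0.20. Of 12 other regulatory T cell genes 1 passed, and it fell: Ikzf4, which encodes the FOXP3 partner Eos, differed by -0.79 ± 0.19 (adjusted p = 0.0300; below the untreated mean in 12 of 12), with all 3 spots negative, from -1.79 to -0.12, while the list's median was 0.27. Of 12 transcription factors of activated or exhausted T cells 1 passed, Id3, an inhibitor of E proteins found in many cell types, which rose by 1.45 ± 0.37 (adjusted p = 0.0364; 12 of 12), while the list's median was -0.19. In lists of 25, 12 and 12 genes, 1 call is no result about the list beside the 3.65% called over all genes. These 6 calls lay near the threshold, and the adjusted p rose above it when single tumours were left out, any of 4 for Cd40 and Ikzf4, 6 for Got2, 7 for Cd86, 9 for Id3 and 11 for Cd200r1. The differences themselves moved little: with 1 tumour left out, in turn, Cd200r1 ran from 1.27 to 1.57, Cd40 from 0.60 to 0.74, Cd86 from 0.81 to 1.03, Got2 from 0.46 to 0.56, Id3 from 1.22 to 1.72 and Ikzf4 from -0.91 to -0.69. In separate fits of the 7 tumours whose titles have the hyphen and the 12 whose titles lack it, none of the 6 passed (adjusted p from 0.0652 to 0.598), and every difference kept its direction. The smallest were 0.42 for Cd40, 0.73 for Cd86 and 1.09 for Cd200r1, with the hyphen, and 0.52 for Got2, while Id3 was 1.30 and Ikzf4 -0.65 without it. Untreated replicates 2, 4 and 6 were among the tumours that mattered to the call for every gene, and the others were untreated replicates 3 or 5, the responders 1, 2 or 3 and the non-responders 3, 4, 5, 7 or 9. Without untreated replicates 2, 4 and 6, in turn, 346, 212 and 222 of all genes were called in place of 678.

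In the other comparisons these 7 lists gave no call. Of the other lists in treated against untreated tumours, 1 of 12 epithelial markers (Krt14), 1 of 8 endothelial markers (Vwf) and 1 of 9 hepatocyte markers (Arg1) passed, all higher, which for lists of this size is again no result beside the 3.65% of all genes. No marker passed among 11 of NK cells, 11 of dendritic cells, 7 of B cells, 12 of fibroblasts, 7 of adipocytes and 8 of skeletal muscle, whose medians were 0.67, 0.20, 0.35, 0.69, 0.48 and 0.88. In the remaining comparisons the calls were Ly6c2, higher in non-responders than in untreated tumours, and Elf5, lower in responders than in untreated tumours.

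**Figure D4:**
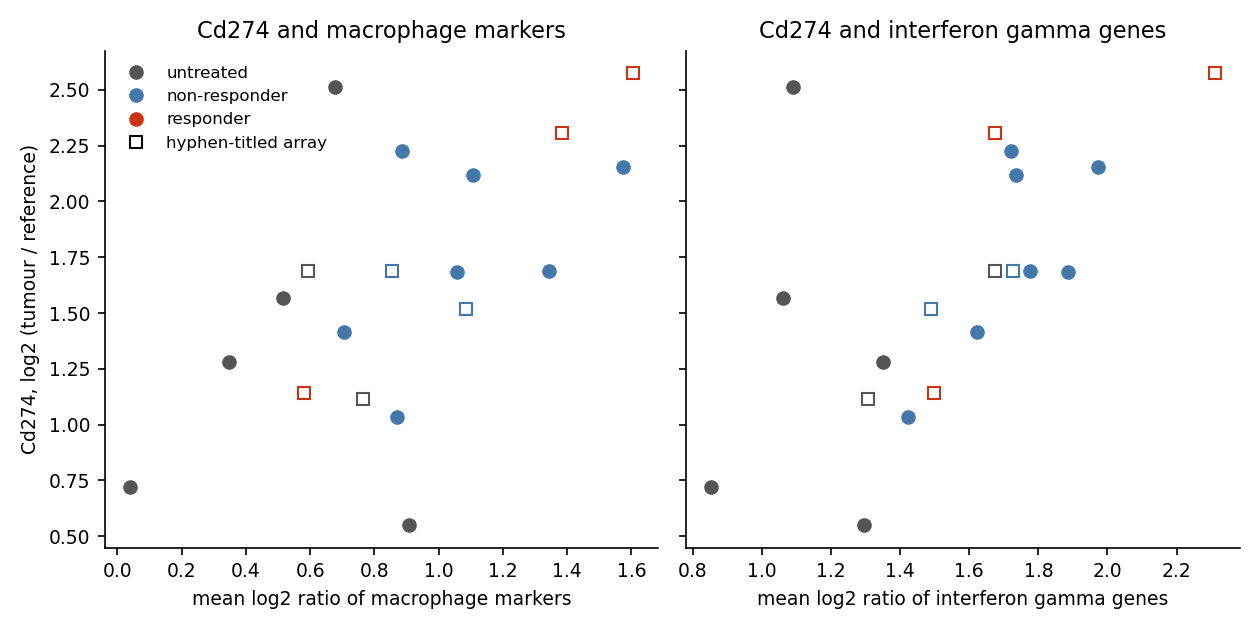
Cd274 (vertical axis, log2 ratio) against the mean log2 ratio of 14 macrophage markers (left) and of 21 interferon gamma genes (right), 1 point for each of 19 tumours, coloured by group, with hyphen-titled arrays as open squares. The points rise together, with Pearson's r of 0.59 and 0.57, and much of the slope comes from few tumours.

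Across tumours, Cd274 went with both lists before adjustment. Over 19 tumours Pearson's r with the macrophage mean was 0.592 (permutation p = 0.00786, two-sided; 0.126 after Benjamini-Hochberg adjustment over 24 relations of 8 genes with 3 lists, Tdo2 not being tested), and Spearman's rho was 0.527 (permutation p = 0.0215, adjusted 0.172). With the interferon gamma mean r was 0.574 (permutation p = 0.0105, adjusted 0.126) and rho 0.605 (permutation p = 0.00683, adjusted 0.082). Without the 2 tumours farthest from the median of the list mean, r was 0.387 and 0.333, so both rest in part on those tumours. Within the hyphen-titled arrays r was 0.865 and 0.859 (n = 7) and within the others 0.456 and 0.440 (n = 12); in treated tumours it was 0.737 and 0.764 (n = 12) and in untreated tumours 0.136 and 0.104 (n = 7). None of the 24 relations passed after adjustment. Ido1, also induced by interferon gamma, had an r of 0.04 with the interferon gamma mean (n = 18; permutation p = 0.869, adjusted 0.988; rho = -0.06, permutation p = 0.803, adjusted 0.874). Ctla4 ranked with the T cell mean (rho = 0.622, permutation p = 0.00668, adjusted 0.082). Its r was 0.271 (permutation p = 0.237, adjusted 0.475), and 0.215 without the 2 farthest tumours. Ctla4 also went with the macrophage mean before adjustment, with an r of 0.538 (permutation p = 0.0189, adjusted 0.151), and 0.523 without the 2 farthest tumours. Its rho there was 0.50 (permutation p = 0.0364, adjusted 0.212). With the interferon gamma mean its r was 0.476 (permutation p = 0.0644, adjusted 0.331). The tumours left out for Ctla4 were the farthest by list mean and did not include non-responder 9. That tumour, at 2.31 for Ctla4 and 1.58 for the macrophage mean, thus remains in the 0.523, and r without it was not calculated.

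Of the genes measured on every array, 14983 or 14984 for each member, those whose values followed a member most closely are named without a test, since a search of this size always finds high correlations. Cd274 was followed by Prune2 (r = 0.78), Fcgr1, a high-affinity Fc receptor of macrophages (0.78), and Lat2, an adaptor of B and myeloid cells (0.76), over 19 tumours. Pdcd1 was followed by Acap3, Acvrl1 and Kif27 (0.79, 0.74 and 0.73), and Ido1 by Gpat3, Ajap1 and Pxmp2 (0.74, 0.73 and 0.73; n = 18). For Lag3 they were 1110051M20Rik, E2f4 and Spcs1 (0.85, 0.84 and 0.84; n = 15), and for Pdcd1lg2 Dctpp1, Tll2 and Cflar (0.92, 0.90 and 0.89; n = 12). Foxp3 had Pipox, Fos and Pdap1 (0.77, 0.76 and 0.76; n = 17), and Havcr2 had Vmn1r215, Zfp503 and Irx5 (0.81, 0.74 and 0.72). Ctla4 had Klra16, Gm17102 and Akap3 (0.84, 0.81 and 0.81; n = 18) and Tdo2 had Selenov, Elmo3 and F12 (0.84, 0.83 and 0.83). Without the 2 tumours farthest from the member's median, 8 of these 27 correlations were below 0.5: Klra16 was at 0.055, Gm17102 at 0.27, Akap3 at -0.08, Selenov at 0.30, Elmo3 at 0.42, Pipox at 0.36, Pdap1 at 0.38 and Irx5 at 0.44. Those 8 rest on few tumours, and the other 19 lay between 0.54 and 0.90. The values of Havcr2 and Tdo2 used here were means of 2 spots that were not correlated, or 1 spot alone where the other was missing. Genes that followed either therefore follow no single reading of it.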

How the data were processed

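Tumour RNA was extracted with a column kit and hybridised with a reference RNA on 2-colour arrays, per the labels. The value table deposited by the authors holds a log2 ratio for each spot of each array; its scanner, background correction, normalization and filters are not named in the sources used here, and no intensities were used, so whether a spot was near background is unknown. The log base, the direction and the meaning of 0 were inferred from the values. Array medians ran from -0.081 to 0.009, and no further scaling was applied. Of 45220 spots, 33653 have 1 gene in the platform annotation, 56 several and 11511 none; 99.6% of gene IDs matched RefSeq's GRCm38.p6 table. Zeros were set to missing, spots measured on at least 70% of arrays were kept (32472), and a gene's spots were averaged. Groups were compared with limma 3.58.1 in R 4.3.3 (lmFit, eBayes; Benjamini-Hochberg over all genes; threshold 0.05), on 19 tumours in 2 groups, 3 groups or, for time, 5 groups. The fit was tested on simulated data. Correlations used 100000 permutations. Within each group every tumour has a mouse number of its own in the titles; the 2 tumours that share a number, in different groups, were treated as independent. The number of arrays limits the precision.

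The members and gene lists were chosen with earlier results of these data known. The genes named are all members, the list genes that passed (at most 4 a list, otherwise the 2 with the smallest p) and, for each member, the 3 most correlated genes; Irf1, Gbp3 and marker genes were named as context. The lists were other inhibitory checkpoint, costimulatory, tryptophan and interferon gamma genes, T cell, regulatory T cell and exhaustion genes, and markers of NK cells, macrophages, dendritic cells, B cells, epithelium, fibroblasts, endothelium, adipocytes, muscle and hepatocytes.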

Additional observations from a re-analysis of the deposited data

Results flagged for a closer look

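Of 89 sets of 4 to 10 tumours examined, 7 held a tumour far from the others by Dixon's criterion at 95%; chance alone marks about 1 in 20. For Pdcd1lg2, non-responder 2 was at 4.339, the nearest non-responder being at 1.395. For Ctla4, non-responder 9 was at 2.312, against 0.632. For spot 8670 of Havcr2, non-responder 6 was at 4.469, against 3.475. For spot 9070 of Havcr2, non-responder 9 was at 2.503 among the 2-week tumours, against 0.157, and non-responder 8 at 1.537 among the 3-week tumours, against 0.23. Untreated replicate 3 was at 1.254 for Cd86, against 0.5055, and untreated replicate 4 at -2.611 for Lat, against -1.409. Non-responder 9 was thus far from its group for Ctla4 and for 1 of the Havcr2 spots.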

How the results depend on the processing

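Under 37 settings no tested gene of the 9 passed in any comparison. Of 1159 values, 1099 were counted as keeping their direction and their side of the threshold, 58 as changing sign and 2 as moving by more than the spread. The count of sign changes leaves out Tdo2 in treated against untreated tumours, a value with no test. From -0.35 it turned to 0.06 within arrays without the hyphen and to 0.09 with spot 10892 alone. The lowest adjusted p in each comparison was 0.1258 (treated against untreated, Cd274 without untreated replicate 3), 0.2339 (non-responders against untreated, Cd274), 0.1921 (responders against untreated, Pdcd1), 0.6561 (responders against non-responders, Foxp3) and 0.7699 (time, Ctla4). Sign changes touched small differences, mostly of Havcr2, whose mean over spots is higher in tumours without spot 9070. The causes of the sign changes were not tested. Below, differences are given in the order treated, non-responder and responder minus untreated unless stated. Havcr2 was 0.31, 0.27 and 0.45 with zeros kept; 0.0439, 0.0353 and 0.0696 with spots measured on every array or spot 8670 alone; and 0.66, 0.58 and 0.85, with 0.011 for time, with its most variable spot or spot 9070 alone. Its responder minus non-responder difference was -0.0338 after quantile normalization (0.0355 for time), -0.13 with title spelling as a block, -0.15 within hyphen-titled arrays and -0.28 among 3-week tumours. Ido1 in non-responders was 0.0613 with zeros kept, 0.0106 after quantile normalization and 1.62 within hyphen-titled arrays, and in treated tumours -0.82 within the others. Foxp3 was 0.0168 in treated and in non-responder tumours without the hyphen, and by time -0.0668 there, -0.0731 with title spelling as a block and -0.13 in the 12 treated tumours alone. Lag3 between responders and non-responders was -0.0476 with zeros kept, and Ctla4 0.23 among 3-week tumours. Tdo2 in responders, a value with no test, moved to -0.87 against untreated tumours and to -1.18 against non-responders with spot 10892 alone.

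With 1 tumour left out, differences that changed sign ranged, for responders minus non-responders, from -0.0006 to 0.72 (Cd274), -0.85 to 0.0413 (Foxp3), -0.31 to 0.31 (Havcr2) and -0.055 to 0.34 (Lag3). For responders minus untreated they ranged from -0.22 to 0.27 (Ctla4) and -0.57 to 0.0526 (Havcr2), and for non-responders minus untreated from -0.13 to 0.0786 (Foxp3) and -0.44 to 0.46 (Ido1). For treated minus untreated Ido1 ranged from -0.15 to 0.75, and by time Havcr2 ranged from -0.32 to 0.23, Pdcd1 from -0.012 to 0.76 and Tdo2 from -0.42 to 0.0675. Over all genes the calls ranged from 2 (hyphen-titled arrays) to 1313 (spots on every array) against 678 for treated tumours, from 0 to 694 against 283 for non-responders, from 0 to 396 (without untreated replicate 1) against 14 for responders, from 0 to 12 (without responder replicate 1) against 0 between responders and non-responders and from 0 to 3 against 1 by time. Of the listed genes that passed, with the most variable spot of each gene Cd40 (1.62, adjusted p = 0.0792), Cd86 (0.81, 0.190) and Got2 (0.52, 0.0529) missed the threshold in the same direction, as did Got2 after quantile normalization (0.48, 0.0773). The mouse shared by 2 tumours could not be fitted as a random block from 1 pair. No paired analysis was possible because the labels give only this 1 pair of tumours, non-responder 1 and responder 3, with a mouse number that groups share. The single-spot fits and the settings for the listed genes were chosen after seeing the data.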
